A study of Mus musculus with 24 samples.

Results

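Chemokine ligands are small secreted proteins that attract leukocytes along concentration gradients, and the genes that encode them were examined here in mouse liver. The genes were taken by symbol: every protein-coding gene named Ccl or Cxcl with a number and at most 1 further letter, together with Cx3cl1, Xcl1, Pf4 and Ppbp. The mouse annotation holds 39 such genes, and 34 of them are among the 21755 genes of the p16-3MR table (Ccl1, Ccl21b, Ccl26, Ccl27b and Cxcl15 are not). The wild-type table gives its gene labels without some letters, so only the 20 ligands whose shortened label fits exactly 1 symbol were used there, out of 12643 labels. Another 11 ligands have a label that fits several symbols, and 8 have no such label in that table.

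The 24 livers formed 8 groups of 3 mice: females and males, p16-3MR and wild type, given GCV or VEH. p16-3MR mice carry the 3MR cassette, which includes a viral thymidine kinase, in the p16Ink4a locus of a bacterial artificial chromosome, and ganciclovir (GCV) is toxic to cells that express this enzyme. All 12 p16-3MR livers, controls included, carry the transgene and belong to batch 1. These mice were injected intraperitoneally with GCV or with the vehicle (VEH, pH11 water) on 5 consecutive days each month, beginning when they were between 16 and 18 months old, and the study's methods place liver collection at about 28 months. The 12 wild-type livers lack the transgene, belong to batch 2, and come from mice treated monthly from 6 months of age, with collection after 3 months. For the p16-3MR mice the GCV dose is 150 mg/kg in the labels and another in the study's methods. The labels call the wild-type mice age-matched although their stated start of treatment is earlier, and a wild-type age at collection is not used here. Genotype, batch, length of treatment and any difference in age therefore cannot be told apart, and no comparison between the genotypes was made. p16-3MR mice are named below by their label number.

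The receptors of chemokines are G protein-coupled receptors on leukocytes and some stromal cells, and the ligands are grouped by them. CXC ligands with an ELR motif bind Cxcr2 and attract neutrophils. Cxcl9 and Cxcl10 are induced by interferon and bind Cxcr3 on T and NK cells, and Ccl2 and its relatives bind Ccr2 on monocytes. In liver these genes are used by Kupffer cells, endothelial cells, stellate cells and stressed hepatocytes, and several chemokines belong to the secretory programme of senescent cells.

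Values are counts per liver, or CPM (counts per 1e6 counts of the TMM-scaled library), from Smart-3SEQ libraries that read the 3′ ends of transcripts. Total counts were 5005760 to 7160172 in the p16-3MR livers and 3084517 to 5667904 in the wild-type livers. The GCV-treated female 33 stood apart, with 64.0% of its counts on mitochondrially encoded genes, a TMM factor of 0.259 and a floor of 3 counts at 2.32 CPM, against floors from 0.293 CPM in the others. Livers 32 (male, GCV) and 24 (male, VEH) had the highest TMM factors, 1.80 and 1.64, and the lowest summed hepatocyte markers, at 26870 and 43130 CPM against at least 89560 CPM elsewhere. Floors cover counting error only. The biological coefficient of variation was 55.8% in the p16-3MR set and 16.6% in the wild-type set. Cdkn2a, the gene whose locus drives the transgene, had 7 counts or fewer in every p16-3MR liver: 0, 0 and 3 in the GCV-treated and 1, 4 and 3 in the VEH-treated females, and 1, 7 and 0 in the GCV-treated and 1 each in the VEH-treated males. This depth does not test whether p16-expressing cells were removed. In whole liver, fewer cells of a type and less RNA per cell cannot be told apart.

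Of the 34 ligands in the p16-3MR table, 20 had a mean of at least 10 counts per liver and 14 were below it. Counts were present in all 12 livers for 17 ligands, and 8 ligands never exceeded 10 counts in a liver. Their genes lie mainly in clusters: 11 of the 34 are on chromosome 11 and 10 on chromosome 5. The summed level of the 34 ligands was 473, 223 and 337 CPM in GCV-treated females (mice 31, 33 and 35) and 410, 507 and 630 CPM in VEH-treated females (27, 28 and 29). In males the sum was 620, 1286 and 294 CPM with GCV (30, 32 and 34) and 1056, 385 and 270 CPM with VEH (24, 25 and 26). Each male group held a liver above every female and at least 1 liver below the lowest VEH-treated female. Liver 32 held the highest value of 13 of the 34 ligands (38.2%) and liver 24 that of 5 (14.7%). Among the 20 ligands with a mean of at least 10 counts, liver 32 was highest for 9 and liver 24 for 4. Of all genes at this level, 21.4% were highest in liver 32 and 4.51% in liver 24.

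**Figure D1:**
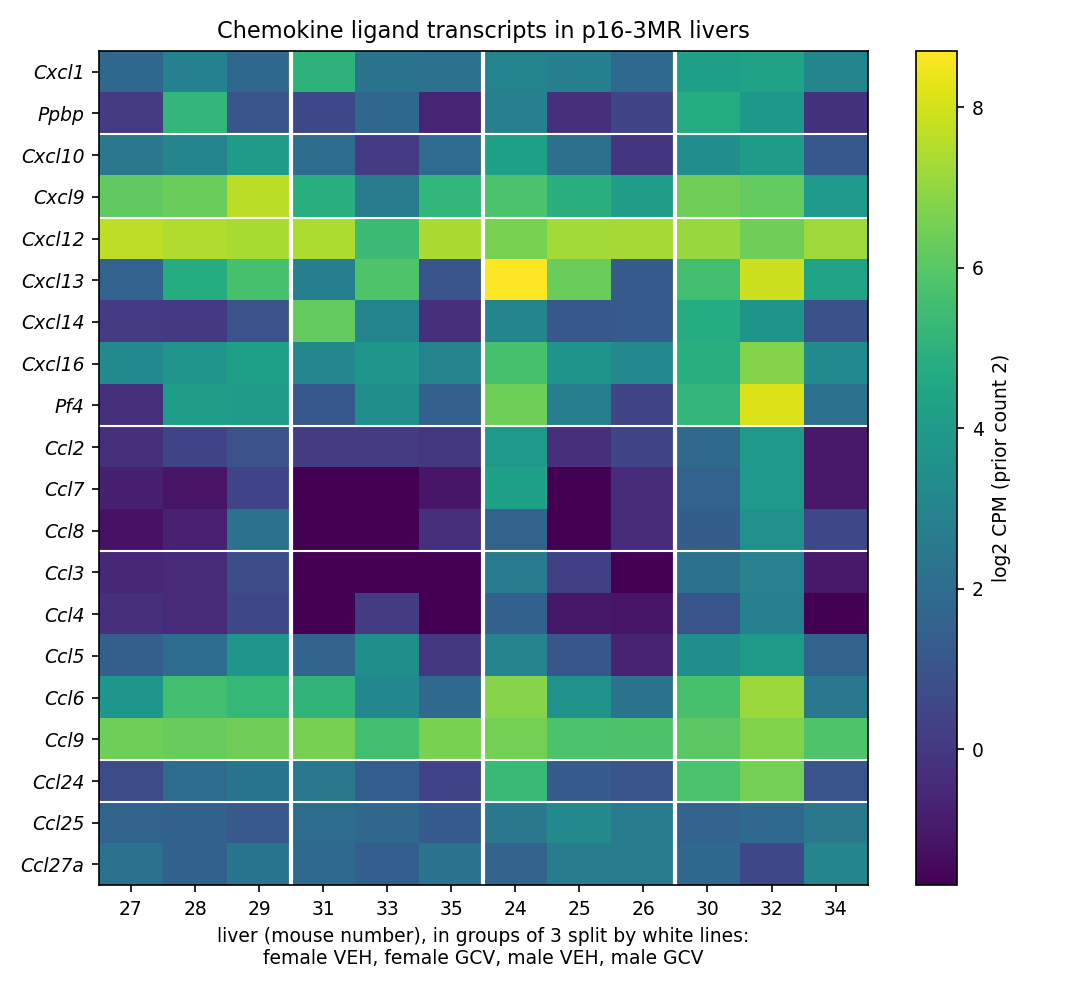
Heat map of log2 CPM (prior count of 2) for the 20 ligands with a mean of at least 10 counts, 1 row per gene, in the 12 p16-3MR livers, 1 column per liver in the order female VEH, female GCV, male VEH, male GCV. High values are bright and low values dark. Liver 32 and liver 24 are bright in many rows at once, and Cxcl12 is lowest in liver 33.

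Cxcl9 and Cxcl10, the interferon-induced ligands of Cxcr3, lie next to each other on the minus strand of chromosome 5 (mm10; Cxcl9 at chr5:92321347-92328079, Cxcl10 at chr5:92346638-92348889). Cxcl9 was at 28.7, 6.18 and 35.9 CPM in GCV-treated females and at 71.2, 80.7 and 197 CPM in VEH-treated females. In males it was at 85.8, 72.9 and 14.4 CPM with GCV and at 53.9, 29.3 and 17.2 CPM with VEH. All GCV-treated females lay below all VEH-treated females, and the male groups overlapped. Cxcl10 was at 3.66, 0.772 and 3.52 CPM in GCV-treated and 5.09, 7.96 and 15.7 CPM in VEH-treated females, again without overlap. Male Cxcl10 ran from 1.92 to 16.1 CPM with GCV and from 0.625 to 18.6 CPM with VEH, which covers the female range.

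The 250 bases before the RefSeq starts of both genes (GRCm38.p6) are shown because they are the neighbours whose female groups did not overlap, and that of Cxcl1 is shown as a CXC gene of the same chromosome whose male groups did not overlap. A motif search on both strands used GAAA, any 2 bases and GAAA for the interferon-stimulated response element, TTCNNNGAA for the interferon-gamma activated sequence and the consensus of the NF-kappaB site. Capitals mark matches. Cxcl9 covers chr5:92328080-92328329 and Cxcl10 chr5:92348890-92349139, both minus strand, and Cxcl1 covers chr5:90890995-90891244, plus strand.
Cxcl9: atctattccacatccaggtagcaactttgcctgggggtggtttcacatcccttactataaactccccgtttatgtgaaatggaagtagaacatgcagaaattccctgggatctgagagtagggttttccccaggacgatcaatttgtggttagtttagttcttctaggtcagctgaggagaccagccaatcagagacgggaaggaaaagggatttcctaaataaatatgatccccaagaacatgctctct
Cxcl10: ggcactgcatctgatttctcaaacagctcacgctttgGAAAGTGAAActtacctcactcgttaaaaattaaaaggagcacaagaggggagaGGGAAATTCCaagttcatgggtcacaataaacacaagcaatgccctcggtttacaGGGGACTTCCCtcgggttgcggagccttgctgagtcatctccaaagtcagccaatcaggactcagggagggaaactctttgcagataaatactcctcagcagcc
Cxcl1: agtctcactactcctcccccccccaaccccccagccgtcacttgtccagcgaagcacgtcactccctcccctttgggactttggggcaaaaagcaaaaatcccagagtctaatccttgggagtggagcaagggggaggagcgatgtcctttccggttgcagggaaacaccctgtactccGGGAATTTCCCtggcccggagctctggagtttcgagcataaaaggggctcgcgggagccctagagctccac
The Cxcl10 window holds the interferon-stimulated motif at -213 to -204 from the start, an NF-kappaB match at -159 to -150, and a pair of overlapping NF-kappaB matches at -104 to -94. In the Cxcl1 window a pair of overlapping NF-kappaB matches spans -71 to -61, and the Cxcl9 window holds none of the 3 motifs. RefSeq windows were found for 29 of the 39 ligands, as 35 promoters. The interferon-stimulated motif was in 3 of these 35 (Ccl19, Cxcl10 and Cxcl14) and in 2.98% of all 32851 promoters of this length. The NF-kappaB consensus was in 7 of 35 (Ccl1, Ccl20, Ccl9, Cxcl1, Cxcl10, Cxcl2 and Cxcl3) and in 7.25% of all, and the interferon-gamma motif in 2 of 35 (Ccl17 and Cxcl14) and in 7.02% of all. A match is a description of letters, not a bound site.

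Among the neutrophil-attracting ligands of Cxcr2, Cxcl1 was at 32, 4.63 and 4.36 CPM in GCV-treated and 3.08, 7.09 and 3.15 CPM in VEH-treated females. With GCV the males had 17.5, 19.4 and 8.07 CPM, and with VEH 7.58, 6.61 and 3.28 CPM. The male groups did not overlap, whereas only mouse 31 exceeded the VEH-treated females. Ppbp, a platelet-stored ligand of the same receptor, reached 35.7 CPM in mouse 28 against 0.804 and 1.76 CPM in the other VEH-treated females and 1.16, 3.09 and 0.335 CPM in GCV-treated females. Ppbp in males was 25.4, 13.9 and 0.576 CPM with GCV and 6.77, 0.536 and 1.09 CPM with VEH. Each group held at least 1 liver under 1 CPM, and all Ppbp groups overlapped. Cxcl5 had 0 counts in each GCV-treated female, 2, 1 and 5 in VEH-treated females, 8, 7 and 4 in GCV-treated males and 0, 1 and 2 in VEH-treated males. Cxcl2 and Cxcl3 had at most 2 counts in any female liver, and Cxcl2 reached 50 counts in liver 32.

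The remaining CXC genes have separate receptors. Cxcl12, the constitutive ligand of Cxcr4, was at 172, 43.2 and 167 CPM and 202, 174 and 164 CPM in GCV- and VEH-treated females, and 86.3 to 144 CPM and 97.8 to 156 CPM in GCV- and VEH-treated males. Its low value was that of mouse 33. Cxcl14, an epithelial chemokine, was at 72.5, 7.72 and 0.503 CPM in GCV-treated females and at 0.804, 0.724 and 1.64 CPM in VEH-treated females. Cxcl14 in males was 26.8, 12.5 and 1.54 CPM with GCV and 8.05, 1.96 and 2.03 CPM with VEH. Mice 31, 33, 30 and 32, all GCV-treated, and mouse 24 exceeded 7 CPM, and in both sexes 1 GCV-treated liver was below every VEH-treated liver of that sex. Cxcl13, which draws B cells through Cxcr5, varied from 1.68 CPM in mouse 35 to 416 CPM in mouse 24, and in every group its highest liver was more than 10 times its lowest. Cxcl16, a membrane-bound ligand of Cxcr6, was at 7.38 to 18.1 CPM in all 6 females, and in males at 28.5, 109 and 9.61 CPM with GCV and 51.2, 12.7 and 8.91 CPM with VEH. Pf4, the platelet and macrophage chemokine, was at 0.536 to 17.2 CPM in females and at 36.2, 286 and 4.23 CPM and 84.8, 6.43 and 1.09 CPM in GCV- and VEH-treated males.

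The CC ligands of Ccr2 attract monocytes. Ccl7 had 0, 0 and 1 count in GCV-treated and 2, 1 and 8 counts in VEH-treated females, against 19, 154 and 1 and 163, 0 and 3 counts in GCV- and VEH-treated males. Ccl2, the main monocyte attractant, was at 0.536 to 1.64 CPM in all 6 females and at 3.38, 14.6 and 0.192 CPM and 14.9, 0.536 and 1.09 CPM in the same male groups. Ccl8 had 0, 0 and 3 counts in GCV-treated females, 1, 2 and 35 in VEH-treated females, 16, 119 and 6 in GCV-treated males and 24, 0 and 3 in VEH-treated males. For all 3 genes the highest livers were 32 and 24, or 32 and 29 for Ccl8, and males 34, 25 and 26 did not exceed the highest female. Ccl12 was detected in 4 livers only, with 48 counts in liver 32 and 17 in liver 24.

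Among the macrophage and lymphocyte CC ligands, Ccl9 was at 47.1 to 97.3 CPM in females and 54.1 to 106 CPM in males. Ccl6, which like Ccl9 is made by myeloid cells, was at 34.5, 8.5 and 3.35 CPM in GCV-treated and 13.3, 46.3 and 36.8 CPM in VEH-treated females, and its male values ran from 4.69 to 141 CPM. Ccl3 had no count in any GCV-treated female, 3, 3 and 11 counts in VEH-treated females, 31, 73 and 1 in GCV-treated males and 50, 5 and 0 in VEH-treated males. Ccl4, its neighbour in sequence and function, had 0, 1 and 0 counts in GCV-treated females and 4, 3 and 9 in VEH-treated females. For both genes all VEH-treated females had counts and at most 1 of the GCV-treated females did. Ccl5, made by T and NK cells, was at 0.671 to 10.8 CPM in GCV-treated and 2.41 to 12.8 CPM in VEH-treated females, which overlap.

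Ccl24, a ligand of Ccr3 that attracts eosinophils, was at 1.01 to 5.21 CPM in the 6 females, and at 53.3, 92.8 and 1.73 CPM and 39.6, 2.14 and 1.72 CPM in GCV- and VEH-treated males. Ccl22, a ligand of Ccr4 made by dendritic cells, had 0 counts in each GCV-treated female, 4, 9 and 19 in VEH-treated females, 3, 0 and 0 in GCV-treated males and 7, 4 and 1 in VEH-treated males. Ccl25, a ligand of Ccr9, was at 2.18 to 3.66 CPM and 2.01 to 2.81 CPM in GCV- and VEH-treated females. Male Ccl25 was 2.68, 3.32 and 4.99 CPM with GCV and 5.13, 8.75 and 5.63 CPM with VEH, without overlap. Ccl27a was at 1.17 to 7.88 CPM, and its count is uncertain because near-identical copies of it and of Ccl21a exist. The other low ligands (Ccl11, Ccl17, Ccl19, Ccl20, Ccl21a, Ccl28, Cx3cl1, Cxcl17 and Xcl1) did not exceed 30 counts in any liver, and Cx3cl1, the ligand of Cx3cr1, was the one of them with counts in all 12 livers.

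**Figure D2:**
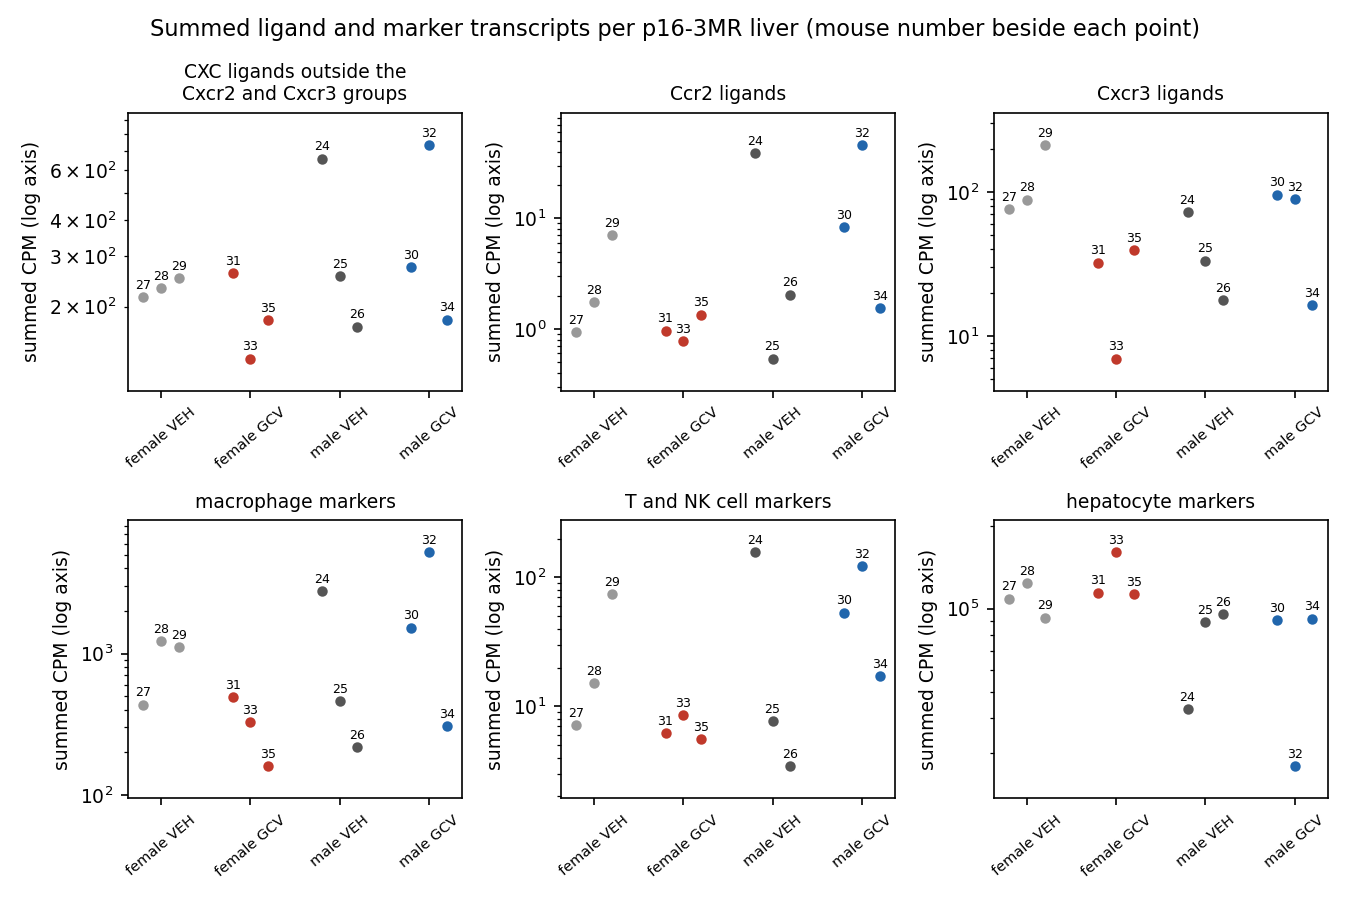
Summed CPM (log axis) per p16-3MR liver for 3 groups of ligands (other CXC ligands, ligands of Ccr2 and ligands of Cxcr3) and for 3 lists of cell type markers (Kupffer cell and macrophage, T and NK cell, hepatocyte), each point 1 liver. Macrophage markers summed to 5200 CPM in liver 32 and 2751 CPM in liver 24, the livers in which hepatocyte markers were lowest.

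Cell type markers also varied between these livers, and the plot of summed levels shows them beside the ligands. All 10 Kupffer cell and macrophage markers had counts in every p16-3MR liver, and their sum was 489, 328 and 160 CPM in GCV-treated females, 436, 1217 and 1114 CPM in VEH-treated females, 1526, 5200 and 306 CPM in GCV-treated males and 2751, 460 and 219 CPM in VEH-treated males. T and NK cell markers, of which 4 of 10 had counts in all livers, summed to 6.17, 8.5 and 5.54 CPM and 7.10, 15.1 and 74.4 CPM in GCV- and VEH-treated females, and to 53.3, 122 and 17.1 CPM and 157, 7.68 and 3.44 CPM in males. The defining genes Cd4, Cd8a, Gzma, Klrb1c, Nkg7 and Trac were at 0 in 1 to 5 of the livers each. Platelet and megakaryocyte markers, the cells that store Pf4 and Ppbp, ranged over 11.2 to 76.5 CPM, 17.7 to 67.9 CPM, 18.4 to 198 CPM and 14.8 to 131 CPM in the 4 groups (female GCV, female VEH, male GCV, male VEH), and 5 of their 7 genes were at 0 in some livers. Their part in the ligand values was not tested.

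GCV was first compared with VEH in p16-3MR females, the comparison made to ask how liver transcripts relate to a drug meant to remove p16-expressing cells. The interferon-induced Cxcl9 and Cxcl10, the myeloid ligands Ccl3 and Ccl22 and the neutrophil ligand Cxcl5 were lower with GCV, and Cxcl14 and Cxcl1 were higher on average. None of the 34 ligands passed an adjusted p-value of 0.05 in edgeR's quasi-likelihood test, and neither did any of the 21755 genes (0%). At an unadjusted p-value under 0.05, 2 ligands were higher against 5.05% of all genes, and 4 were lower against 2.32% of all genes. After filterByExpr, which kept 21 ligands, both directions together came to 2, against 9.3% of all genes in that fit. Both directions together came to 2 without mouse 31, against 6.87% of all genes in that fit, and to 4 or 5 without any other 1 of these livers, against 4.29% to 12.4%. Of the 20 ligands with a mean of at least 10 counts, 0 were higher without overlap between the groups, against 8.82% of the genes at this level. Cxcl9 and Cxcl10, 2 of the 20, were lower without overlap, a share near the 9.48% of these genes. Ccl3 was also lower without overlap, but it reached this mean through the males (17 counts in females, 160 in males). It is therefore not counted here, although the 20 still hold other ligands of this kind, such as Ccl7 (12 counts in females, 340 in males). With limma-voom 0 ligands and with DESeq2 1 (Cxcl14) passed after adjustment, beside 7 and 90 of the 21755 genes.

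The mean of Cxcl9 was 23.6 ± 15.5 CPM (SD, n = 3) with GCV and 116 ± 69.8 CPM (SD, n = 3) with VEH, and the groups did not overlap. The fitted difference was -2.26 ± 0.73 (log2, SE), or 4.8-fold lower, with an edgeR adjusted p = 0.646. When each of the 6 livers was left out in turn it stayed between -2.67 and -1.68, with an unadjusted p under 0.05 in all 6 fits. Cxcl10 was lower by a log2 value of -1.71 ± 0.98 (SE, edgeR adjusted p = 0.685). Ccl22 was at least 5.95-fold lower, taking 3 counts over the 3 GCV-treated livers as the floor (edgeR adjusted p = 0.646), with an unadjusted p under 0.05 in all 6 fits that left out a liver. Ccl3 was at least 3.16-fold lower (edgeR adjusted p = 0.673) and Cxcl5 at least 1.49-fold lower (edgeR adjusted p = 0.667), both on few counts. Mouse 33 had a floor of 2.32 CPM, so its counts of 0 carry less information than those of mice 31 and 35.

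Cxcl14 was at 26.9 ± 39.6 CPM (SD, n = 3) with GCV and 1.05 ± 0.505 CPM (SD, n = 3) with VEH, a log2 difference of 4.67 ± 1.37 (SE, edgeR adjusted p = 0.646). It rested on mouse 31, without which it was 1.64 (edgeR adjusted p = 0.805). The same mouse carried the difference of Cxcl1, which was 1.67 ± 0.71 (log2, SE, edgeR adjusted p = 0.667) with it and 0.01 without it. Ppbp was lower by a log2 value of -3.43 ± 1.59 (SE, edgeR adjusted p = 0.667) and at -0.17 without mouse 28. Over all 34 ligands the median log2 difference was -0.51, or -0.45 with ligands absent from a group set at their bound, against 0 over all genes, and the ligand estimates were 7 higher and 24 lower, with 3 at 0. The SD between livers of a group for the ligands' median level was 0.593 (log2) in the p16-3MR set, above the size of this median. It is a spread of single livers and not the error of a difference. With all livers, the medians given later for males, the interaction and the sexes were larger than it. With 1 liver left out, the male median fell to as little as 0.135 and that of the sexes to -0.52, both smaller than it. Beside it, 10 of 10 macrophage markers and 9 of 10 T and NK cell markers had lower estimates with GCV, with medians of -1.35 and -1.61 (log2), and 1 and 3 of them had an unadjusted p under 0.05. Estimates were also lower for 6 of 8 sinusoidal endothelial and 6 of 8 B and plasma cell markers (3 of each list at an unadjusted p under 0.05), 6 of 7 platelet markers (1, median -2.83), 9 of 10 monocyte and neutrophil markers (0) and 6 of 8 stellate cell markers (0). They were higher for 5 of 6 cholangiocyte markers (1) and split 4 and 4 for hepatocyte markers (0). The summed level of the B and plasma cell markers was not lower with GCV. It was 162 to 731 CPM (median 273.5) with GCV and 124 to 258 CPM (median 233.7) with VEH, which overlap.

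**Figure D3:**
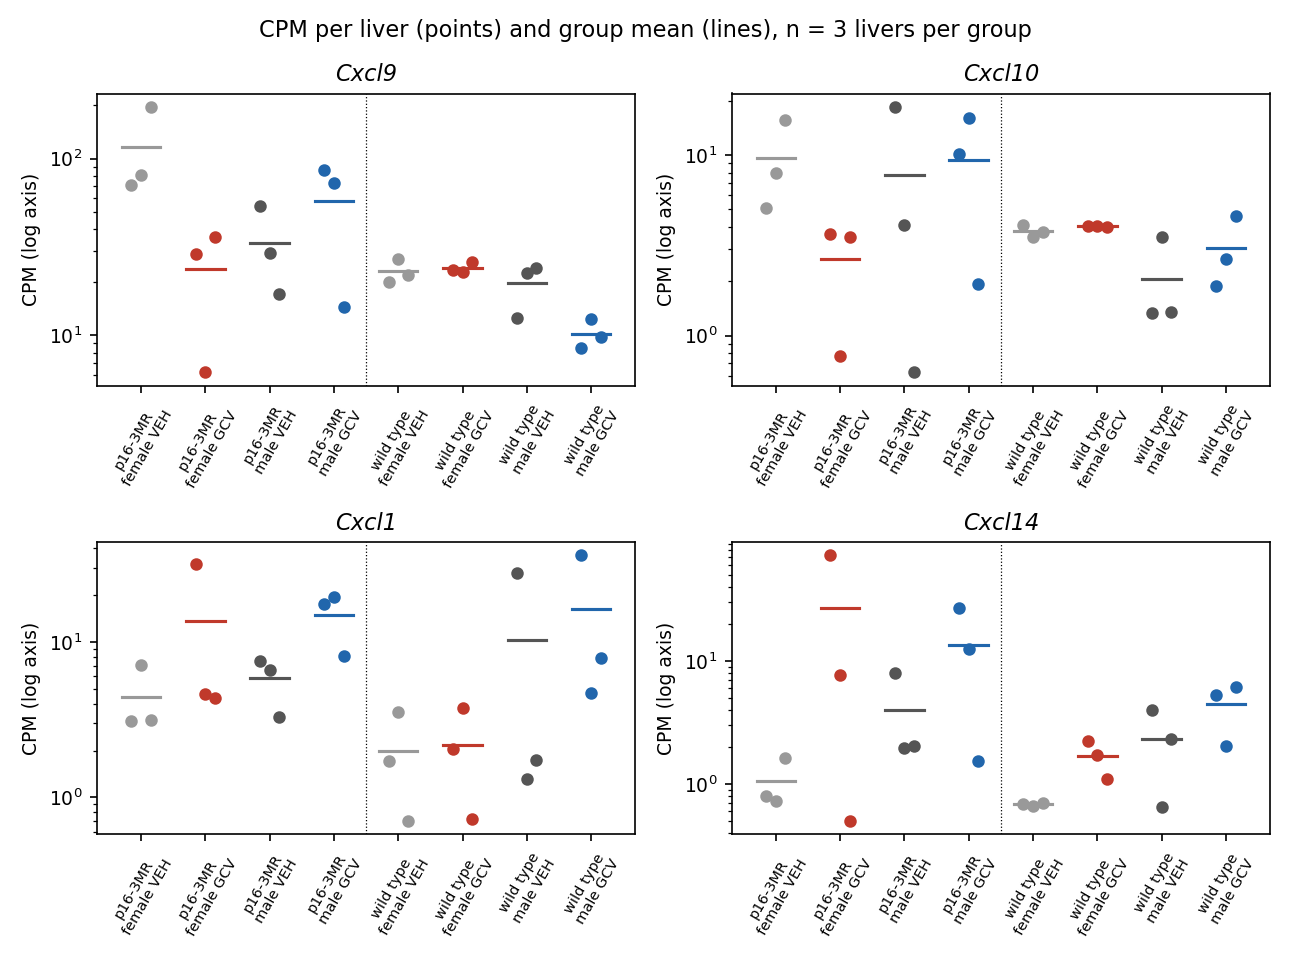
CPM (log axis) of Cxcl9, Cxcl10, Cxcl1 and Cxcl14 in all 24 livers, each point 1 liver and each line the mean of a group of 3, in 8 groups by genotype, sex and treatment. Cxcl9 of the GCV-treated p16-3MR females (6.18 to 35.9 CPM) lies below that of the VEH-treated females (71.2 to 197 CPM), and Cxcl14 of mouse 31 (72.5 CPM) stands above the rest of its group.

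In p16-3MR males the same comparison gave mostly higher ligand estimates with GCV, and none was called. Cxcl1, the neutrophil attractant, was higher without overlap, at 15.0 ± 6.07 CPM with GCV and 5.83 ± 2.26 CPM with VEH (SD, n = 3 each). Its log2 difference was 1.36 ± 0.70 (SE, edgeR adjusted p = 1). Ccl25 was lower without overlap, at 3.66 ± 1.20 CPM against 6.50 ± 1.96 CPM (SD, n = 3 each), with a log2 difference of -0.83 ± 0.45 (SE, edgeR adjusted p = 1). These 1 higher and 1 lower of 20 ligands (5% each) stood against 3.81% and 3.17% of the genes at this level. With edgeR, 0 of 34 ligands passed after adjustment (0% of all genes), and 0 had an unadjusted p under 0.05 in either direction, against 1.1% of all genes higher and 0.814% lower. DESeq2 and limma-voom also called 0 ligands after adjustment, beside 5 and 145 of the 21755 genes, with 1 and 19 ligands at an unadjusted p under 0.05, against 1.92% and 23.1% of all genes in the same fits.

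The median log2 difference of the 34 ligands in males was 1.1, or 0.78 at the bounds, against 0.04 over all genes, and the estimates were 27 higher and 7 lower. Its size depended on livers 32 and 24. Without liver 24 it was 2.14, and 13 ligands (Ccl24, Ccl8, Cxcl16, Ccl6, Ccl4, Ppbp, Pf4, Cxcl10, Ccl5, Ccl12, Ccl7, Ccl2 and Cxcl2) then had an unadjusted p under 0.05, as did 7.76% of all genes. Without liver 32 it was 0.14 with 0 such ligands (1.47% of all genes), and without both it was 1.80 with 4 (3.56%). Without liver 30 there were 2 such ligands (1.82% of all genes) and without liver 34 there were 5 (4.21%). In the males 9 of 10 macrophage, 10 of 10 monocyte and neutrophil, 8 of 10 T and NK cell and 8 of 8 B and plasma cell markers had higher estimates with GCV, and 0 of these lists' genes had an unadjusted p under 0.05. Estimates were also higher for 6 of 6 cholangiocyte, 6 of 8 stellate cell and 7 of 7 platelet markers, with 2, 2 and 1 genes at an unadjusted p under 0.05. They were lower for 7 of 8 hepatocyte and 6 of 8 sinusoidal endothelial markers, with 0 such genes.

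Whether females and males responded differently to GCV was tested directly as an interaction. Cxcl9 was lower with GCV in females and had a higher estimate in males (0.79 on the log2 scale), and the female response minus the male response was -3.05 ± 1.00 (log2, SE, edgeR adjusted p = 0.976). This difference lay between -3.67 and -2.45 over the 12 fits that left out a liver, with an unadjusted p under 0.05 in each. The same interaction was -6.59 ± 2.11 for Cxcl5, -5.63 ± 2.09 for Ppbp and -4.88 ± 2.16 for Ccl8, each with an edgeR adjusted p = 0.976. When a liver was left out, Ppbp ran from -7.51 (without mouse 24) to -2.36 (without mouse 28) and Ccl8 from -8.56 (without mouse 35) to -2.03 (without mouse 29). Cxcl5 had 8 counts or fewer in any liver and 0 in the GCV-treated females, so its fitted value depends on the prior count, and Ccl8 had 3 counts in that group. No ligand and no gene (0%) passed after adjustment with edgeR, and DESeq2 and limma-voom called 0 ligands, beside 3 and 1 of the 21755 genes, with 4 and 11 at an unadjusted p under 0.05 against 3.46% and 15.5% of all genes. At an unadjusted p under 0.05, 0 ligands were higher and 4 lower (11.8%), against 1.91% and 1.87% of all genes, and the count in both directions was 15 without liver 24 and 7 without liver 34, against 8.48% and 6.23% of all genes in those fits, and 11 without both livers 24 and 32, against 5.72%. The median interaction over the 34 ligands was -1.66 (log2) against -0.04 over all genes, and it was -0.78 without liver 32 and -3.42 without liver 24. Interaction estimates were also below 0 for 7 of 7 platelet markers (median -4.26), 9 of 10 T and NK cell markers (median -2.94) and 7 of 8 B and plasma cell markers (median -2.30), with 3 genes of each list at an unadjusted p under 0.05. They were below 0 for 9 of 10 macrophage markers (median -2.60) and 8 of 8 stellate cell markers, with 2 such genes each, and, with 0 such genes, for 10 of 10 monocyte and neutrophil, 5 of 6 cholangiocyte, 6 of 8 sinusoidal endothelial and 4 of 8 hepatocyte markers. Their part in the ligand values was not tested.

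Levels in females and males were compared as the mean of both treatments. The monocyte ligands Ccl7 and Ccl2, the eosinophil ligand Ccl24, Ccl3, Cxcl16 and Pf4 were lower in females on average, and all of these were high in livers 32, 24 and, for most, 30. Females minus males was -4.84 ± 1.37 (log2, SE) for Ccl7 (edgeR adjusted p = 0.376) and -3.12 ± 0.91 for Ccl24 (edgeR adjusted p = 0.428). Ccl7 had 1 count in the GCV-treated females, so its fitted value depends on the prior count. Ccl3 had 0 counts in that group, and since its fitted value depends on the prior count none is given (edgeR adjusted p = 0.51): it had 17 counts in all 6 females, all with VEH, and 105 and 55 counts in GCV- and VEH-treated males. The difference was, for Ccl2, -2.71 ± 0.92 (edgeR adjusted p = 0.609) and for Cxcl16 -1.63 ± 0.55 (edgeR adjusted p = 0.611). Pf4 differed by -3.05 ± 1.12 (edgeR adjusted p = 0.675) and Ccl25 by -0.84 ± 0.33 (edgeR adjusted p = 0.685). Without liver 24 these values were -2.54 for Ccl7, -1.70 for Ccl24, -1.37 for Ccl2, -1.57 for Pf4 and -1.08 for Cxcl16, and without both livers 24 and 32 they were -1.50, -1.27, -0.48, -0.35 and -0.38. Without liver 32 alone, Pf4 was at -1.94 and Cxcl16 at -1.01. Ccl20 had 0 counts in the 6 females and 8 in the 6 males, at least 2.15-fold lower (edgeR adjusted p = 0.685). Cxcl2, Cxcl13, Ccl28, Cx3cl1, Ccl12 and Ccl4 also had an unadjusted p under 0.05.

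These 14 of 34 ligands (41.2%) were all lower in females, against 4.44% of all genes lower, and 0 ligands were higher against 2.61%. None passed after adjustment with edgeR, where 0.303% of all genes did. DESeq2 called 2 ligands, Ccl24 and Ccl7, and limma-voom called 0, beside 196 and 215 of the 21755 genes. Limma-voom had 8 at an unadjusted p under 0.05, against 12% of all genes in that fit. Of the 20 ligands with a mean of at least 10 counts 0 separated all 6 females from all 6 males in either direction, against 0.492% of the genes at this level higher and 0.363% lower. The count depends on livers 32 and 24: without liver 24 it was 5 (4.23% of all genes), without liver 32 it was 8 (4.73%), and without both it was 4 (Ccl3, Ccl25, Cxcl5 and Ccl28, 4.49%), and the median over the ligands went from -1.05 (-0.86 at the bounds, -0.08 over all genes) to -0.05 without both. Leaving out mouse 35 gave 7 (6.96% of all genes) and mouse 27 gave 8 (4.7%). Macrophage markers were lower in females in 10 of 10 estimates, 8 with an unadjusted p under 0.05 and a median of -1.87 (log2). T and NK cell markers were lower in 10 of 10 estimates, monocyte and neutrophil markers in 8 of 10 and stellate cell markers in 8 of 8, each list with 2 genes at an unadjusted p under 0.05. Sinusoidal endothelial markers were lower in 5 of 8 (1 such gene), B and plasma cell markers in 5 of 8, platelet markers in 5 of 7, cholangiocyte markers in 5 of 6 and hepatocyte markers in 3 of 8 (0 such genes in these 4 lists), and their part in the ligand difference was not tested.

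**Figure D4:**
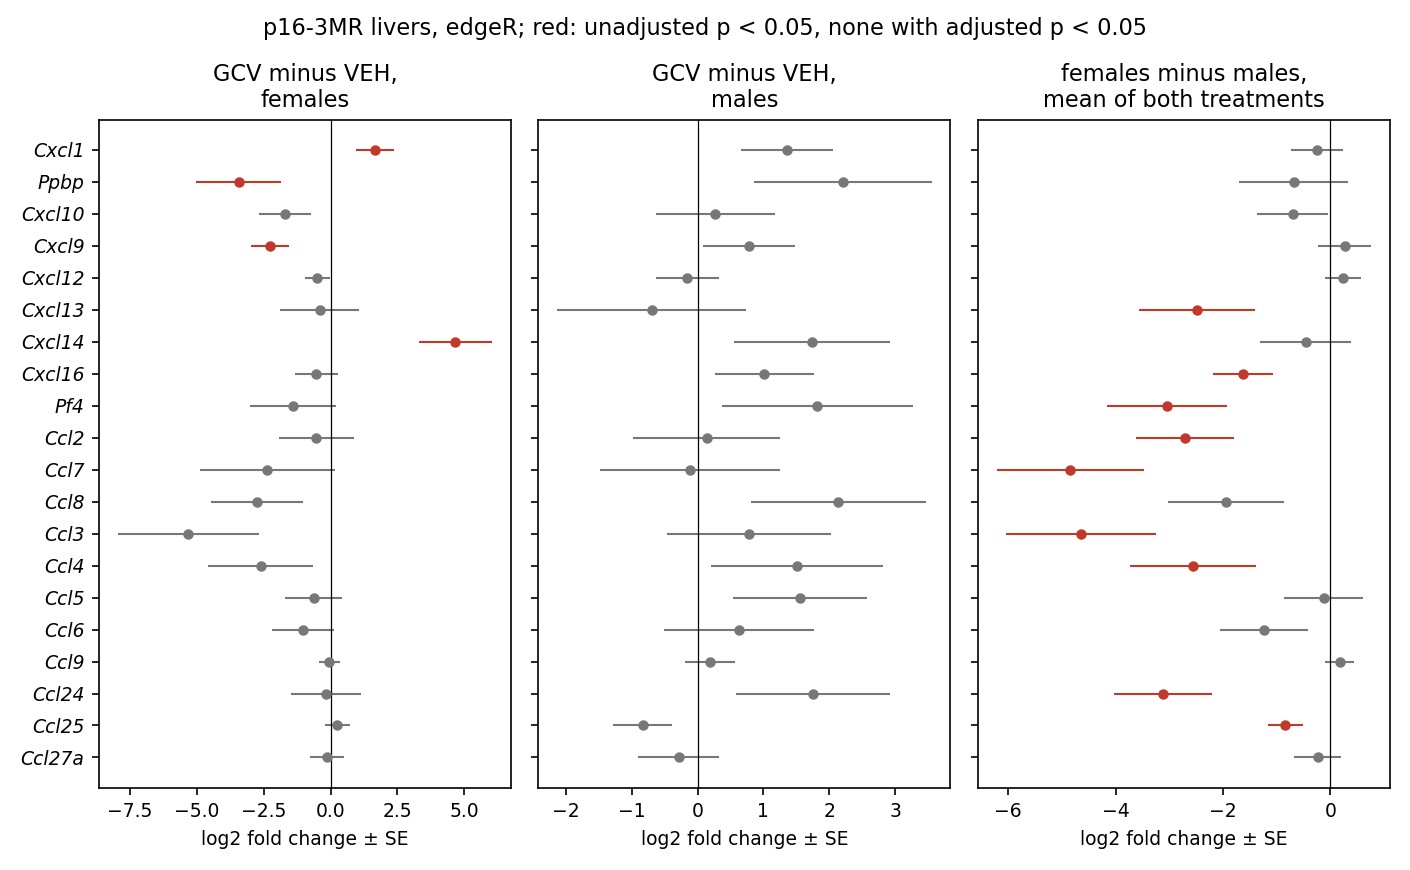
Log2 fold changes with their standard errors from edgeR for the 20 ligands with a mean of at least 10 counts in p16-3MR livers, in 3 panels: GCV against VEH for females, the same for males, and females minus males. Points are genes, bars are standard errors, red marks an unadjusted p under 0.05 and the horizontal ranges differ between panels; Cxcl9 and Cxcl14 lie on opposite sides of 0 in females, and most ligands lie below 0 in the panel of females minus males. The fitted value of Ccl3, at 0 counts in GCV-treated females, depends on the prior count.

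The partners of the ligands were examined in the p16-3MR livers by the same test. Among 15 chemokine receptors, 0 had an unadjusted p under 0.05 with GCV in females, against 7.37% of all genes, and 1 did in males, against 1.91%: Cxcr4, the receptor of Cxcl12, at 3.95, 12 and 0.768 CPM with GCV and 1.63, 0.179 and 0.156 CPM with VEH (log2 2.99 ± 1.12, SE, edgeR adjusted p = 1). Only liver 34 of the GCV-treated males fell within the VEH range. Of 12 signalling genes 1 had an unadjusted p under 0.05 in females and 0 in males: Grk6, a kinase that desensitises chemokine receptors, was lower in females at -1.22 ± 0.56 (edgeR adjusted p = 0.667), and 0 of the 5 atypical receptors, which scavenge ligands, had an unadjusted p under 0.05 in any of the 4 comparisons, where the interaction and the sexes had 3.78% and 7.05% of all genes.

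The interaction of Cxcr4 was -4.20 ± 1.64 (log2, SE) and that of Cxcr6, the receptor of Cxcl16, was -2.94 ± 1.27, both with an edgeR adjusted p = 0.976. The sexes differed at an unadjusted p under 0.05 in 1 of 15 receptors and 1 of 12 signalling genes. The same held for 2 of 14 cytokines and regulators, against 7.05% of all genes. The receptor was Ccr1, which binds Ccl3 and Ccl9, at -3.36 ± 1.09 (edgeR adjusted p = 0.556). The cytokines were Il1a and Tnf, at -2.29 ± 0.72 and -3.42 ± 1.22 (edgeR adjusted p = 0.532 and adjusted p = 0.656). The signalling gene was the G protein subunit Gng2, at -2.37 ± 0.84 (edgeR adjusted p = 0.653). Ccr1 was at 100.3 CPM in liver 32 and 21.2 CPM in liver 24, and at 0.156 to 6.20 CPM in the other 10 livers.

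Wild-type livers show GCV against VEH without the transgene, in mice of batch 2 treated for 3 months from 6 months of age. They do not test it at the age and treatment length of the p16-3MR mice. The 20 ligands matched there included 11 with at least 10 counts on average, and 13 had counts in all 12 livers. In females, given as GCV then VEH, Cxcl9 was at 23.5, 22.7 and 26.1 CPM and 20.1, 27.2 and 22.1 CPM, and in males it was at 8.49, 12.3 and 9.77 CPM with GCV and 12.5, 22.5 and 24 CPM with VEH. GCV-treated males were thus below all VEH-treated males, with 12.3 and 12.5 CPM as the closest pair, and the female groups overlapped. Cxcl12 was at 118 to 203 CPM, and Ccl9 was at 49.4 to 58.3 CPM and 37.3 to 51.9 CPM in GCV-treated females and males.

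With GCV in wild-type females, 0 ligands passed after adjustment in edgeR against 0.00791% of all genes, and 0 had an unadjusted p under 0.05, against 2.25% of all genes higher and 2.32% lower. Of the 11 ligands with enough counts 0 were free of overlap, against 5.78% of such genes higher and 5.68% lower. Cxcl14, just under that level of counts, was at 2.26, 1.73 and 1.09 CPM with GCV and 0.688, 0.664 and 0.705 CPM with VEH (log2 1.25 ± 0.70, SE, edgeR adjusted p = 1), and it was picked out after its values were seen. In wild-type males Cxcl9 was the 1 ligand lower at an unadjusted p under 0.05 and without overlap, by a log2 value of -0.94 ± 0.24 (SE, edgeR adjusted p = 0.622). This is 1 of 20 against 2.41% of all genes, and 1 of 11 (9.09%) against 4.92% of those with enough counts. 0 ligands were higher, against 2.65% at an unadjusted p under 0.05 and 4.75% without overlap, and 0% of all genes passed after adjustment. The count at an unadjusted p under 0.05 was 5 without the VEH-treated male 1, against 9.68% of all genes in that fit (46 genes after adjustment), and 2 without VEH-treated male 2 or any 1 of the GCV-treated males, against 3.71% to 7.48%. Without the VEH-treated male 1, 2 ligands passed after adjustment: Cxcl9 (log2 -1.17, edgeR adjusted p = 0.014) and Cxcl1 (log2 3.35, edgeR adjusted p = 0.0382). DESeq2 and limma-voom called 0 ligands in either sex, beside 17 and 3 of the 12643 genes in females and 1 and 0 in males.

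In the wild-type interaction the female response of Cxcl9 minus the male response was 1.01 ± 0.32 (log2, SE, edgeR adjusted p = 0.982), and its unadjusted p was under 0.05 in the 12 fits that left out a liver. It was the 1 ligand higher at an unadjusted p under 0.05 (1.95% of all genes), with 0 lower (2.5%) and 0 after adjustment (0.00791% of all genes) in edgeR, DESeq2 and limma-voom. The count at an unadjusted p under 0.05 was 4 without the VEH-treated male 1 (6.98% of all genes) and 2 without the VEH-treated female 5 (4.67%) or the GCV-treated male 2 (5.77%). Among the partners, Gnai2 had -0.28 ± 0.12 with GCV in females (log2, SE, edgeR adjusted p = 1), Irf7 had -0.59 ± 0.19 in males (edgeR adjusted p = 0.889), and 0 of 12 chemokine receptors had an unadjusted p under 0.05 in either sex, against 4.56% of all genes in females and 5.06% in males.

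Between the sexes, 3 of the 20 wild-type ligands passed after adjustment with edgeR (15%), against 7.94% of all genes. Cxcl9 was higher in females by 0.72 ± 0.16 (log2, SE, adjusted p = 0.00522), 1.65-fold. Cxcl1 was lower in females by -2.63 ± 0.66 (adjusted p = 0.0148), at 0.705 to 3.74 CPM in the 6 females and at 36.2, 4.72 and 7.93 CPM and 27.9, 1.31 and 1.74 CPM in GCV- and VEH-treated males, so that the highest values were those of the males numbered 1. Cxcl14 was lower by -1.54 ± 0.45 (adjusted p = 0.0355), with 0.664 to 2.26 CPM in females and 0.656 to 6.10 CPM in males. Of the 12 fits that left out a liver, Cxcl9 was called in 12, Cxcl1 in 10 and Cxcl14 in 3, and Cxcl1 was lost without either male numbered 1. The log2 difference of Cxcl1 ran from -2.94 to -1.30 over these fits. Limma-voom called Cxcl9 alone, beside 1155 of the 12643 genes, and with VEH-treated livers only 0 were called. Ccl9 was 0.29 ± 0.10 higher (edgeR adjusted p = 0.079). In all, 2 ligands were higher and 2 lower at an unadjusted p under 0.05 (10% each), near the 10.4% and 9.7% of all genes, and 0 of 11 were free of overlap, against 3.13% higher and 3.47% lower. The males GCV 1, GCV 3 and VEH 1 had 29%, 27.2% and 29.5% of their counts on their 10 most abundant genes, and the part of this in the values was not tested. Of the signalling genes, Arrb1, which uncouples activated receptors, was higher in females by 0.76 ± 0.23 (edgeR adjusted p = 0.0427).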

How the data were processed

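Whole livers of 24 mice were profiled with Smart-3SEQ. Per the labels and the study's methods, the authors checked and trimmed reads (FastQC 0.11.9, Trim Galore 0.6.10), estimated transcripts with Salmon 1.10.3, summed them to genes with tximport and left out genes under 3 reads. The deposited values are the authors' estimated counts (expected counts) per gene as whole numbers, not scaled for depth. The build named is mm10. Wild-type labels lack 9 lower-case letters and were matched only where 1 symbol fits. RefSeq promoter sequences came from GRCm38.p6.

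Counts were tested with edgeR 4.0.16 in R 4.3.3: TMM scaling, a fit of all 12 livers of a genotype with 4 group means, quasi-likelihood tests, and Benjamini-Hochberg adjustment over all genes at 0.05. Log2 CPM used a prior count of 2. The script was tested on simulated data. The labels do not say that the mice are independent litters, so p-values apply to these livers only. Each sets a difference against the spread within groups, estimated over the 4 groups of a genotype. Members and lists were chosen with earlier results of these data known. Genes with full statistics were those with an unadjusted p under 0.05, at most 8 per comparison, or, at a mean of at least 10 counts, no overlap between groups of 3, and up to 4 partner genes per comparison. Alternatives were DESeq2 1.42.0, its size factors in edgeR, limma-voom (limma 3.58.1) with quality weights, filterByExpr, no mitochondrial genes, single-sex and VEH-only fits, a prior count of 0.5, a replicate block and each liver left out. Some partner genes are not reported here.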

Additional observations from a re-analysis of the deposited data

Results flagged for a closer look

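The interaction term of edgeR for the response to GCV in females against males of p16-3MR mice had an unadjusted p under 0.05 for 4 of 34 ligands, all lower, against 1.87% of all genes lower and 1.91% higher, and none passed after adjustment over all genes (adjusted p = 0.976 for each). The female minus the male response was -3.05 (log2) for Cxcl9, the T cell attractant, -6.59 for Cxcl5 (0 counts in GCV-treated females, so that the value depends on the prior count), -5.63 for Ppbp and -4.88 for Ccl8. Over the 12 fits that left out a liver, the unadjusted p was under 0.05 in 12 for Cxcl9, in 12 for Cxcl5, in 10 for Ppbp and in 6 for Ccl8. Beside them, interaction estimates were below 0 for 9 of 10 T and NK cell, 9 of 10 macrophage and 7 of 7 platelet markers, with medians of -2.94, -2.60 and -4.26 (log2), and their part was not tested. In wild-type livers the same term was 1.01 for Cxcl9 (edgeR adjusted p = 0.982), with an unadjusted p under 0.05 in 12 of 12 such fits.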

How the results depend on the processing

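For p16-3MR mice, no median and no ligand whose p16-3MR difference is described with its adjusted p was reversed under the alternatives. Other ligands were not followed through each alternative: Ccl12 had male counts in livers 24 and 32 alone, so without both it has 0 in males against 1 and 2 in GCV- and VEH-treated females. With DESeq2, 1 ligand was called with GCV in females (Cxcl14, adjusted p = 0.036) and 2 between the sexes (Ccl24, adjusted p = 0.0281, and Ccl7, adjusted p = 0.0318), against 0 with edgeR. Over all genes DESeq2 called 90, 5, 3 and 196 in the female, male, interaction and sex comparisons, against 0, 0, 0 and 66 with edgeR. After filterByExpr, 2, 0, 2 and 8 of 21 ligands had an unadjusted edgeR p under 0.05 in these comparisons. Over the 13205 genes kept, the shares were 9.3%, 1.64%, 2.97% and 7.33%. With 1 liver left out at a time, the median ligand difference ran from 0.135 to 2.14 in males, from -3.418 to -0.777 in the interaction and from -1.39 to -0.52 between the sexes. Leaving out livers 24 and 32 together, a choice made after seeing the data, gave 1.797, -2.69 and -0.051, and VEH-treated livers alone gave -0.364 between the sexes. The causes were not tested.

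In wild-type livers the medians ran from -0.064 to 0.277 (females), from -0.036 to 0.311 (interaction) and from -0.107 to 0.221 (sexes) when a liver was left out, and limma-voom gave 0.091 in males and -0.018 in the interaction. The counts of called ligands when a liver was left out were 0 to 2 in males and 1 to 3 between the sexes (1004 genes called with all livers), where limma-voom called 1 and VEH-treated livers alone 0. A prior count of 0.5 put the median ligand level at 1.275 (log2 CPM), against 1.468. With the replicate block 1 ligand was called in males (Cxcl9, -0.929, edgeR adjusted p = 0.0144), beside 68 of the 12643 genes, against 0 without the block. Same-numbered livers correlated at -0.045, -0.057 and 0.002 in females and 0.196, 0.283 and -0.066 in males, so the numbers were not taken as pairs. Depth limits Cxcl5, Ccl22, Ccl3 and the 8 ligands at 10 counts or fewer, and the floor of liver 33 limits its group.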

Other observations

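Cxcl11, the remaining interferon-induced ligand of Cxcr3, is annotated as a polymorphic pseudogene in this build and was therefore not counted among the ligands. In p16-3MR females it was at 8.29, 6.95 and 3.69 CPM with GCV and at 3.62, 1.30 and 1.13 CPM with VEH. The GCV-treated females were above all VEH-treated females, which is the direction opposite to Cxcl9 and Cxcl10, and the log2 difference was 1.62 ± 0.68 (SE, edgeR adjusted p = 0.667). In p16-3MR males it was at 0.683 to 3.65 CPM with GCV and 0.938 to 1.75 CPM with VEH, which overlap. It was named after its values were seen.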
